A study of Marchantia polymorpha with 12 samples.

Results

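The response to UV-B of the Marchantia polymorpha mutant Mphy5 was taken from 6 of the 12 libraries, the 3 from mutant plants given 3 h of UV-B and the 3 from mutant plants given none, over all 18255 genes of the table. Marchantia is a liverwort, and the plants were gemmalings, which develop from gemmae, small discs that the plant sheds for asexual spread. All were 7 days old and grew in white light of 50 µmol m-2 s-1, to which the treated plants received 1.5 µmol m-2 s-1 of UV-B. The mutant is labelled Mphy5-1 and male, the comparison line is the male wild type Tak-1, and all libraries were made from total RNA of whole gemmalings. The lesion in the mutant, the number of independent mutant lines and the hour of harvest were not stated in any source at hand. If plants without UV-B were taken 3 h earlier, elapsed time and UV-B cannot be told apart. Replicates are numbered 1 to 3 in each group with no word on separate cultures. The p-values therefore reflect the spread among these libraries alone, which may be technical. In whole plants, fewer cells of a type and less RNA per cell cannot be told apart.

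In flowering plants UV-B is absorbed by the photoreceptor UVR8, which then binds the ubiquitin ligase COP1 and so protects the bZIP transcription factor HY5 from degradation. HY5 switches on genes for flavonoid sunscreens and for RUP proteins, which return UVR8 to its inactive form. Other transcription factors, among them B-box proteins, work with HY5, and COP1 acts in a complex with SPA proteins while DET1 belongs to a separate light-signalling repressor complex. Marchantia has single genes for many of these proteins, and its UV-B pigments include flavone glycosides and red auronidins. The comparison of treated with untreated Mphy5 plants asks what UV-B still does to transcripts when functional MpHY5 is missing.

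Values are normalized reads, in which each library's read counts share 1 scaling factor, and recovered totals in the 6 Mphy5 libraries were 44787979 to 67532310 reads. Fold changes are differences of log2(value + 1) with their standard errors, and a gene is said to be called when its adjusted p from limma (Benjamini-Hochberg over the 15999 genes tested) is below 0.05. Principal component 1 separated the mutant from wild type and component 2 separated plants with from those without UV-B, and no library lay apart from its group on either. On component 3 the treated wild type libraries stood far apart, at 4.4, -33.4 and 46.9, and the Mphy5 libraries lay between -8.8 and 6.1. Transcripts of the male V chromosome summed to 139777 to 152843 normalized reads in the Mphy5 libraries, while the female U chromosome gave 79 to 171 reads, in libraries all labelled male.

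UV-B changed the transcriptome of Mphy5 widely. Over all genes tested, 5087 (31.8%) were called, 2538 (15.9%) higher and 2549 (15.9%) lower with UV-B. Changes of at least 2-fold were more often rises, 531 genes (3.32%) against 221 (1.38%) falls. Of these, 51 rose over 8-fold and 135 between 4 and 8-fold, while only 1 fell over 8-fold and 34 between 4 and 8-fold. Over all genes tested, the 3 treated libraries all lay above the 3 untreated ones for 21% and all below them for 21.9%. Without replicate 1 of the treated plants the 2-fold falls numbered 146.

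The 531 genes took 1.60%, 1.53% and 1.52% of the normalized reads in the untreated Mphy5 libraries and 4.55%, 4.54% and 4.41% in the treated ones. The 221 genes went from 0.691%, 0.711% and 0.641% to 0.260%, 0.323% and 0.319%. The sets differ in size, so their shares do not compare a single rise with a single fall. These shares describe genes that were chosen by the same values.

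**Figure D1:**
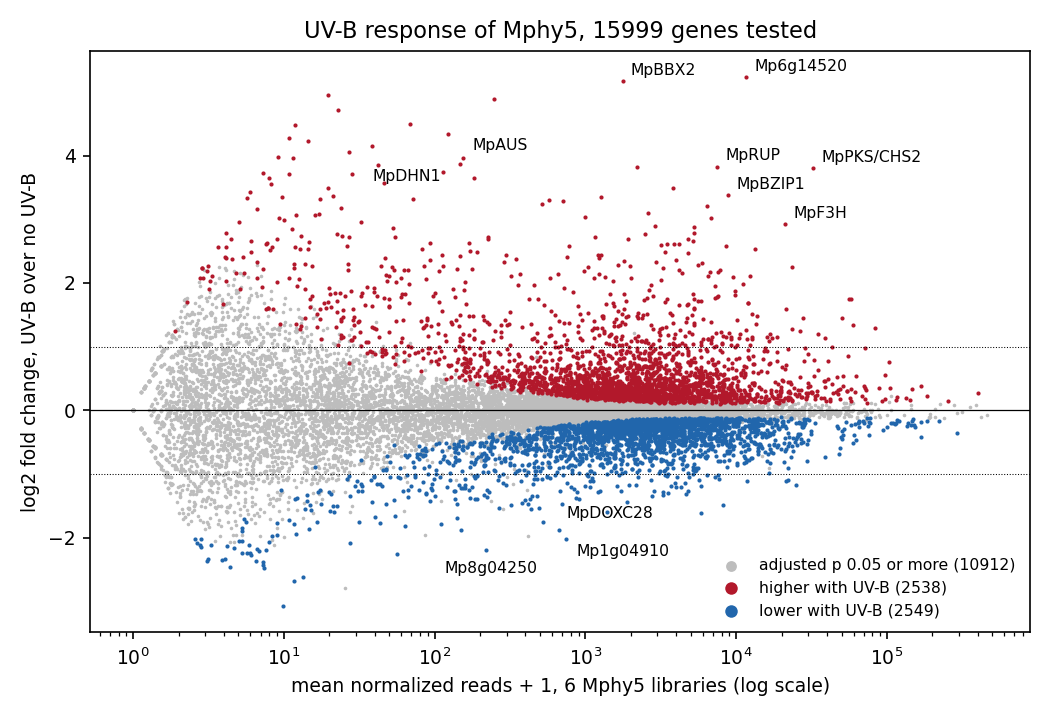
Log2 fold change with UV-B in Mphy5 (vertical axis) against the mean normalized reads plus 1 over the 6 Mphy5 libraries (log scale) for 15999 genes, with 2538 called higher in red, 2549 called lower in blue and dotted lines at 2-fold. The named rises such as MpBBX2 and Mp6g14520 lie above 5 on the log2 scale, and the falls stay closer to 0.

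MpRUP, MpCOP1 and MpDET1 rose with UV-B, together with the MpHY5 transcript itself. Of 13 tested genes for light receptors and light signalling, 8 (61.5%) rose, 5 at least 2-fold, and 1 (7.7%) fell. Over all genes tested, 15.9% were called in each direction. The median log2 fold change of the list was 0.53 against -0.01 over all genes tested. MpRUP, the repressor of the UV-B photoreceptor, stood at 962, 921 and 1059 normalized reads without UV-B and at 13768, 14862 and 13078 with it. The groups were far apart, a 14.2-fold rise (log2 3.82 ± 0.06 SE, n = 3 per group, limma adjusted p = 2.0e-20). MpCOP1, the ubiquitin ligase, went from 2514, 2450 and 2348 to 10274, 10797 and 10439, a rise of 4.31-fold. MpDET1 went from 4513, 4303 and 4270 to 15482, 15966 and 14605, a rise of 3.52-fold. Every treated library lay above every untreated one for both genes, with limma adjusted p of 8.5e-18 and 3.7e-16.

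MpBZIP1 (Mp1g16800), taken as MpHY5 from published nomenclature, was still transcribed in the mutant. Its values were 1592, 1522 and 1521 without UV-B and 16018, 16815 and 15534 with UV-B, a 10.4-fold rise (log2 3.38 ± 0.05, limma adjusted p = 1.7e-20). The reads say nothing about the protein, and the level of this transcript is no check of the mutation. The wild type values were 1418, 1319 and 1281 without and 5999, 6354 and 5745 with UV-B, so the rise was larger in the mutant, by 1.21 ± 0.07 on the log2 scale (limma adjusted p of the difference 1.1e-08).

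The other receptors and partners split into those that moved and those that did not pass the test. MpCRY-DASH, a member of the cryptochrome and photolyase family, rose by 2.27 ± 0.07 on the log2 scale from 744, 599 and 689 to 3276, 3243 and 3224. MpSPA1, the partner of COP1, rose by 0.63 and MpPHY, the red-light receptor phytochrome, by 0.53. The blue-light receptor MpPHOT rose by 0.14, a call lost in 5 alternatives. The UV-B photoreceptor gene MpUVR8 did not pass the test, with 6772, 6310 and 6272 without UV-B and 6880, 6490 and 6356 with it (log2 0.03, 95% interval -0.07 to 0.13). The groups overlapped. MpCRY, MpFKF and MpFHY1 also did not pass, at 0.05, 0.00 and -0.15. MpBHLH6, which the name table also lists as MpPIF, a growth-promoting factor that light signalling opposes, fell from 18589, 16966 and 15439 to 10386, 11050 and 11366 (log2 -0.63 ± 0.07, limma adjusted p = 3.8e-07).

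**Figure D2:**
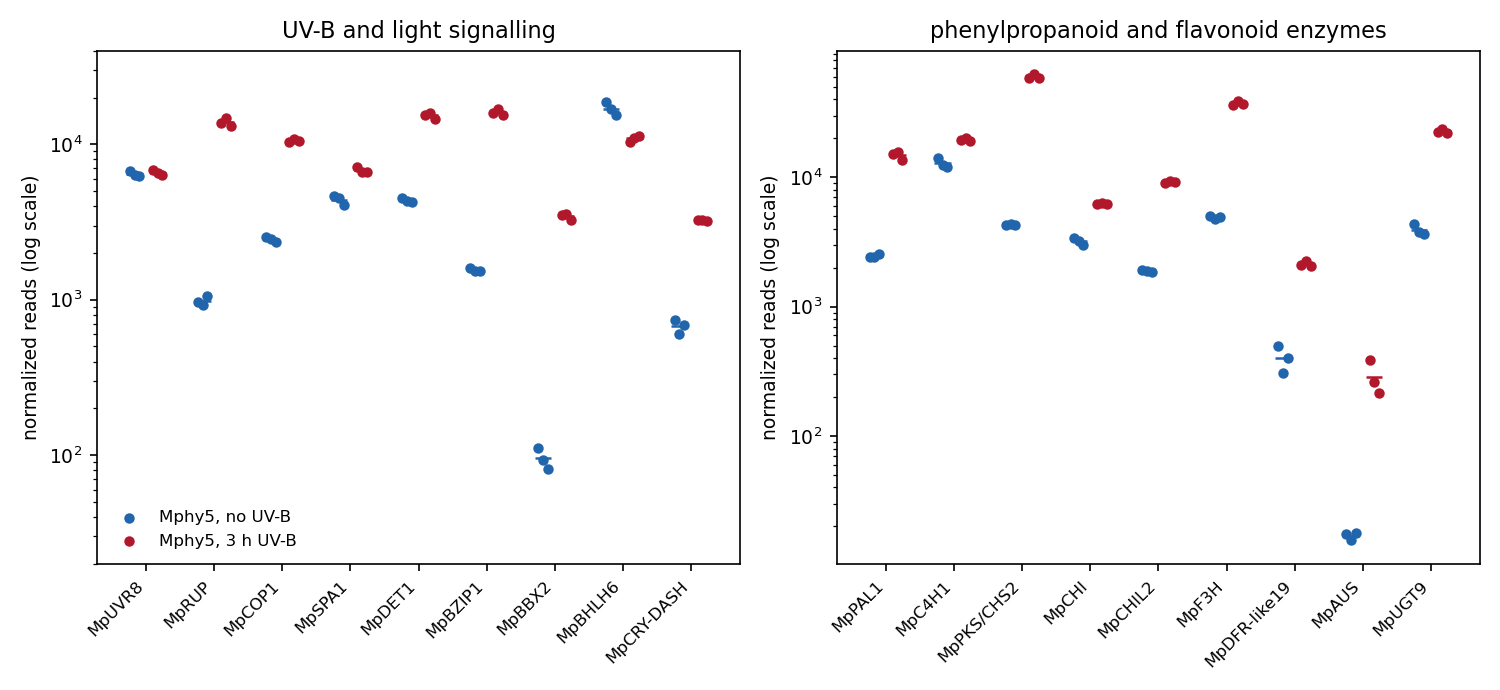
Normalized reads (log scale) of light-signalling genes (left) and phenylpropanoid and flavonoid genes (right) in the 3 Mphy5 libraries without UV-B (blue) and the 3 with 3 h of UV-B (red), with horizontal lines at group means. MpUVR8 overlaps between the groups, MpBHLH6 is lower with UV-B and the other genes are higher in every treated library.

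All 6 B-box genes, which encode zinc finger cofactors of light signalling, were called, 3 higher and 3 lower. Over all genes tested 31.8% were called, 15.9% in each direction. MpBBX2 had the largest change of any gene with a symbol. It stood at 112, 93.6 and 81.4 normalized reads without UV-B and at 3483, 3582 and 3236 with it, 35.8-fold higher (log2 5.16 ± 0.15, limma adjusted p = 4.5e-16). MpBBX3 and MpBBX1 rose by only 0.62 and 0.53 on the log2 scale, and MpBBX5, MpBBX6 and MpBBX4 fell by 0.67, 0.50 and 0.15. The fall of MpBBX4 was lost without replicate 2 of the treated plants (limma adjusted p = 0.075).

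Among 7 clock genes 3 (42.9%) rose and 1 (14.3%) fell, against 15.9% of all genes in each direction. MpPRR, a pseudo-response regulator, went from 5794, 5822 and 5458 to 18719, 18572 and 17763, a 3.22-fold rise. MpELF3, a subunit of the evening complex, rose by 0.57 and Mp1R-MYB11, which the name table also lists as MpRVE, by 0.44. MpGI fell by 0.15, a call lost without either of 2 libraries. MpTOC1, MpELF4 and MpGARP7 did not pass the test, at -0.08, 0.06 and -0.13.

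The first steps towards flavonoids were raised at single genes rather than across the gene families. MpPAL1, one of the phenylalanine ammonia-lyases that open the phenylpropanoid pathway, went from 2398, 2415 and 2543 to 15008, 15647 and 13625 (log2 2.59 ± 0.09, limma adjusted p = 5.7e-11). MpC4H1 and MpC4H3, named for the hydroxylase of the next step, rose by 0.61 and 0.29. Neither of the 4CL genes, named for the ligase that follows, rose, since Mp4CL1 stood at 0.01 and did not pass the test and Mp4CL2 fell by 0.35. Over the 16 tested genes of these families, 3 rose and 3 fell, with a median of -0.09. That is 18.8% each, near the 15.9% of all genes in each direction.

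The strongest rise of a chalcone synthase was that of MpPKS/CHS2. It went from 4309, 4315 and 4305 to 58839, 62744 and 58648 normalized reads, 13.9-fold higher (log2 3.80 ± 0.06, limma adjusted p = 1.5e-20). Within this family of 25 tested polyketide synthases it was an exception, since 2 (8%) rose and 8 (32%) fell. Over all genes the share was 15.9% in each direction. Only MpPKS/CHS2 rose at least 2-fold, and 4 fell at least 2-fold. The calls of 2 of these 4 did not hold in all 17 alternatives of the Mphy5 response. That of MpPKS/CHS18 (log2 -1.26, limma adjusted p = 0.048) was lost in 7, namely TMM rescaling, the replicate block and 5 with 1 library left out. That of MpPKS/CHS16 was lost in 5, the replicate block among them. The family has many close copies, and the sources do not state how reads that match several copies were counted, so the split between copies is uncertain.

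The later flavonoid enzymes rose more broadly, 16 of 25 (64%) against 5 (20%) that fell, with a median of 0.39. Chalcone isomerase MpCHI rose from 3377, 3196 and 2999 to 6202, 6372 and 6212, 1.96-fold. MpCHIL2, a chalcone isomerase-like protein, rose 4.89-fold and MpF3H, a flavanone hydroxylase by name, 7.56-fold, from 5049, 4784 and 4940 to 36085, 39106 and 36555. MpDFR-like19 and MpDFR-like12, named for their likeness to dihydroflavonol reductases, rose by 2.45 and 1.46 on the log2 scale. The 5 falls were all in other genes named MpDFR-like and lay between -0.47 and -0.15. MpAUS, the aurone synthase of auronidin formation in Marchantia, rose from 17.4, 15.6 and 17.9 to 385, 260 and 216, 15.6-fold on few reads. MpR2R3-MYB14, known in Marchantia as an activator of auronidin formation, rose from 5.42, 23.4 and 11.4 to 92.2, 84.2 and 93.2 (log2 2.86 ± 0.43, limma adjusted p = 1.7e-05). In each raised gene named so far in this paragraph the 3 treated libraries lay above the 3 untreated ones, as for 21% of all genes tested. Among 35 UDP-glycosyltransferases, 5 (14.3%) rose and 3 (8.6%) fell, against 15.9% of all genes in each direction. This family attaches sugars to flavonoids and other small molecules, and MpUGT9 rose most, by 2.54 on the log2 scale.

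On chromosome 4, neighbouring genes of the early pathway moved the other way. MpPKS/CHS14, MpPKS/CHS15, MpPAL4 and MpPKS/CHS16 follow one another in the gene order, and all 4 fell. MpPKS/CHS14 went from 5011, 4468 and 4536 to 2168, 2375 and 2288 (log2 -1.04 ± 0.06, limma adjusted p = 2.8e-11). MpPAL4 went from 1023, 625 and 568 to 209, 306 and 236 (log2 -1.52 ± 0.23, limma adjusted p = 9.6e-05). MpPKS/CHS15 fell by 0.91, and MpPKS/CHS16 by 1.39 with a call that was lost when any 1 of 4 libraries was left out. On another chromosome MpHCT, a hydroxycinnamoyl transferase by name, also fell, from 17984, 15624 and 14651 to 6526, 7624 and 8194.

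Of 65 antioxidant enzymes, 25 (38.5%, against 15.9% of all genes) rose, 4 fell and 36 were not called, and the median change was 0.06. MpDHAR1, which recycles the antioxidant ascorbate, went from 2799, 2667 and 2801 to 12226, 12888 and 12214, 4.51-fold higher. MpMDHAR1, of the same cycle, rose 2.05-fold, the glutathione peroxidase MpGPX2 2.22-fold and the glutathione transferase MpGST17 1.60-fold. MpCAT1, counted in this list by its symbol, was at 0 in all untreated libraries and at 30.03, 11.3 and 17.9 with UV-B, at least 7.38-fold higher against a floor of 3 reads per library. Of 146 peroxidases, most of which act in the cell wall in other plants, 4 (2.7%) rose and 15 (10.3%) fell. MpPOD169 rose 4.31-fold, and MpPOD7 and MpPOD152 fell by 0.56 and 0.58.

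Of 66 dehydrins and late embryogenesis abundant (LEA) proteins, which protect cells that lose water, 19 (28.8%) rose, 12 of them at least 2-fold, 8 fell and 39 were not called. The median change was 0.40. MpDHN1, a dehydrin, went from 8.68, 16.4 and 38.3 to 254, 317 and 248 (log2 3.86 ± 0.35, limma adjusted p = 5.4e-08). MpLEA-like14 rose from 4.34, 5.46 and 0.81 to 44.0, 47.8 and 62.1, and MpLEA-like18 from 35.8, 33.6 and 31.8 to 159, 187 and 219. Several of the raised members lay close to each other on chromosome 4, among them MpLEA-like18, MpLEA-like19 and MpLEAL5 with rises of 2.44, 3.18 and 2.26. The falls included MpLEA-like8 and MpLEA-like33, at -0.70 and -0.72. In the abscisic acid list 3 rose and 3 fell of 10 (30% each, against 15.9% of all genes in each direction). MpABA1, an enzyme on the route to this hormone, rose 2.79-fold and the bZIP factor MpABI5B, named for a factor of the hormone's response, 2.45-fold, while MpABA4 and the kinase MpSNRK2A fell by 0.38 and 0.19.

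Of 76 ABC transporters, which pump diverse compounds across membranes, 24 (31.6%) rose, 12 at least 2-fold, and 16 (21.1%) fell, against 15.9% in each direction over all genes, and the median was 0.04. MpABCI7 rose from 970, 1000 and 1105 to 5432, 6076 and 5720, and MpABCC14 and MpABCC5, of the subfamily that carries conjugates into vacuoles in other plants, rose 3.23-fold and 2.80-fold. MpABCG29 went from 0, 7.02 and 22.0 to 148, 59.1 and 33.4, and its call (log2 3.57 ± 0.99, limma adjusted p = 0.020) was lost in 3 alternatives, among them that without replicate 1 of the treated plants (limma adjusted p = 0.064). Of 73 pentatricopeptide repeat proteins, which process organelle RNA, 33 (45.2%) rose and 3 fell, but only 3 rose at least 2-fold and the median was 0.17. MpPPR_16 was the exception in size, from 1309, 1242 and 1220 to 12041, 11614 and 11106. All 4 tested genes of chlorophyll synthesis were called higher. MpGUN5, which by name encodes the large subunit of magnesium chelatase, went from 31320, 28031 and 26905 to 58601, 58427 and 54904, and the other 3 rose by at most 0.21, with the calls of MpCHLD and MpGUN4 lost in 4 and 6 alternatives.

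**Figure D3:**
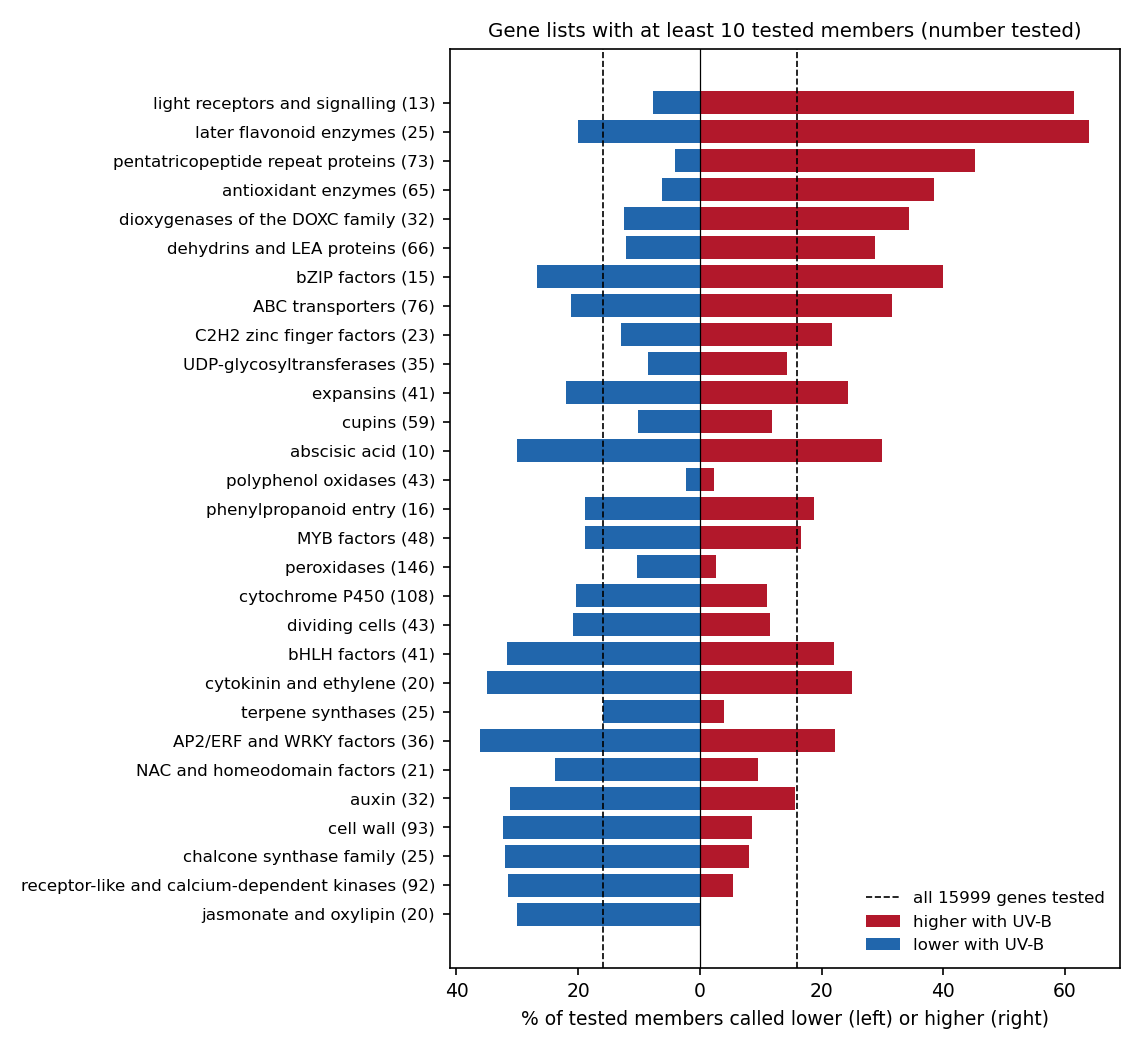
Percentage of tested members called lower (blue, to the left) or higher (red, to the right) with UV-B in Mphy5 for each gene list with at least 10 tested members, with dashed lines at 15.9% for all genes in each direction. Light signalling, later flavonoid enzymes and pentatricopeptide repeat proteins extend farthest to the right, and the oxylipin list has falls only.

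In the jasmonate and oxylipin list none of 20 rose and 6 (30%, against 15.9% of all genes) fell, 4 of them at least 2-fold. Lipoxygenases start this route by oxidising fatty acids. MpLOX14 went from 13581, 10872 and 11685 to 4688, 4028 and 4131 (log2 -1.49 ± 0.10, limma adjusted p = 8.2e-08), and MpLOX2 and MpLOX10 fell to 47.2% and 43.5% of their untreated level. MpLOX16 fell by 1.66 on few reads, and MpCYP74N2, of the cytochrome P450 family that uses the products of lipoxygenases, by 0.50. The groups did not overlap in any of these 5 genes, which were picked among called falls. Over all genes tested, the treated libraries all lay below the untreated ones for 21.9%. Among the other large falls with a symbol, MpPTB8, MpCupin82 and MpPTB3 stood at 37.0%, 39.2% and 41.2% of their untreated level. The call of MpPTB3 was lost without any 1 of 5 of the 6 Mphy5 libraries.

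Of 9 secreted signalling peptides none rose and 6 (66.7%, against 15.9% of all genes) fell, with a median of -0.31. MpIDA4 went from 674, 629 and 528 to 219, 223 and 217, or 36.3% of its untreated level. MpCLE1, a peptide hormone that acts on growth at the meristem in Marchantia, went from 698, 929 and 746 to 350, 376 and 410. MpRALF1, MpCLE2, MpPSK and MpRALF2 fell by 0.47, 0.33, 0.23 and 0.17. Receptor-like and calcium-dependent kinases showed 5 rises (5.4%) and 29 falls (31.5%) among 92. Several of these kinases perceive such peptides or sugars at the cell surface in other plants. MpRLK-Pelle_L-LEC26 fell from 719, 665 and 659 to 230, 313 and 268, and MpRLK-Pelle_PERK-2a and MpRLK-Pelle_LysM5 fell by 0.82 and 0.79.

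Of 32 genes of auxin, the hormone of cell growth and patterning, 10 (31.2%) fell, 5 (15.6%) rose and 17 were not called, against 15.9% of all genes in each direction. The auxin exporter gene MpPIN1 fell from 10209, 9808 and 10439 to 4934, 5043 and 5066 (log2 -1.02 ± 0.04, limma adjusted p = 1.5e-13). The importer gene MpAUX1 went from 5818, 5468 and 5499 to 3432, 3366 and 3437, and the receptor gene MpTIR1 from 5028, 4723 and 4606 to 2933, 3014 and 3024. These 3 genes were tightly grouped in both conditions. MpSAUR2 fell by 0.96, while the rises were in MpSAUR11, MpSAUR8, MpSAUR6, MpYUC2 and MpTPL, at 0.98, 0.86, 0.63, 0.44 and 0.12.

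Of 20 cytokinin and ethylene genes 5 (25%) rose and 7 (35%) fell, against 15.9% of all genes in each direction. MpIPT2 and MpIPT1, both named for the first enzyme of cytokinin synthesis, moved in opposite directions. MpIPT2 rose from 32.5, 24.2 and 18.7 to 149, 187 and 140, and MpIPT1 fell from 1190, 1083 and 1175 to 758, 755 and 725. MpCKX2 and MpCKX1, of the family that degrades cytokinins, rose by 1.07 and 0.66, and the response regulator MpRRA fell by 0.40.

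Cell-wall genes fell more often than they rose, 30 of 93 (32.3%) against 8 (8.6%), with 15.9% of all genes called in each direction. MpGT37.5 had the largest fall of the list and stood at 38.2% of its untreated level, and MpCSLD10, MpGT61.1, MpGT34.8 and MpGT34.6 fell by 0.50 to 0.75. Expansins, which loosen the wall, went both ways, with 10 rises (24.4%) and 9 falls (22%) among 41. The rises were larger, 7 of them at least 2-fold, led by MpEXL9, which went from 928, 881 and 886 to 5442, 5732 and 5164. MpExpansin34 went from 508, 249 and 350 to 1847, 1683 and 1555, and MpEXL1 and MpExpansin6 fell by 0.76 and 0.59.

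Among transcription factors the bHLH list showed 9 rises and 13 falls of 41, the AP2/ERF and WRKY list 8 and 13 of 36, the MYB list 8 and 9 of 48, the bZIP list 6 and 4 of 15, the C2H2 zinc finger list 5 and 3 of 23, and the NAC and homeodomain list 2 and 5 of 21. Over all genes 15.9% were called in each direction, and the MYB list, at 16.7% and 18.8%, and the falls of the C2H2 list, at 13%, were close to that share. MpBHLH40 fell to 38.5% and MpBHLH21 to 49.6% of their untreated level, and MpBHLH39 rose 1.94-fold. MpBZIP8 and MpBZIP15 both fell to 68.6%. Mp1R-MYB17 fell from 2284, 2087 and 1971 to 1139, 993 and 1117.

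Enzyme families of specialised metabolism had members at both ends of the ranking. Of 32 DOXC dioxygenases, a plant family of oxygenases, 11 (34.4%) rose and 4 (12.5%) fell, against 15.9% of all genes in each direction. MpDOXC28 had the largest fall of any gene with a symbol under the naming rule, from 1034, 1039 and 1046 to 226, 355 and 277 (log2 -1.88 ± 0.12, limma adjusted p = 1.4e-10), while MpDOXC6 and MpDOXC18 rose 3.55-fold and 2.82-fold. Of 108 cytochrome P450 genes 12 (11.1%) rose and 22 (20.4%) fell, with MpCYP94L1 higher 2.95-fold and MpCYP824A1 at 51.6% of its untreated level. Of 25 terpene synthases 1 (4%) rose and 4 (16%) fell, and of 43 polyphenol oxidases 1 rose and 1 fell (2.3% each). Of 59 cupins 7 (11.9%) rose and 6 (10.2%) fell.

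The largest changes among genes without a symbol were as large as those above. Mp6g14520 went from 601, 584 and 616 to 21641, 24381 and 21737, a rise of more than 5 on the log2 scale (5.23 ± 0.07, limma adjusted p = 1.5e-20), the largest rise under the naming rule. Mp2g25900 went from 17.4, 10.9 and 17.9 to 513, 521 and 400, and Mp3g02290 from 13.01, 17.2 and 4.89 to 235, 257 and 201. Mp2g16790 and Mp3g21510 rose by 4.49 and 4.16 at lower levels. The name table gives no function for these genes. Among the falls, Mp1g04910 went from 1210, 1230 and 1116 to 281, 308 and 283, and Mp8g04250 from 393, 361 and 318 to 50.4, 87.4 and 103. Mp5g16240, Mp8g02750 and Mp3g01570 fell by 2.25, 1.87 and 1.82. In addition, 12 genes were at 0 in all 3 untreated libraries and had at least 3 reads in every treated one. Mp8g15910 had the most normalized reads of these, 25.7, 18.6 and 20.3, at least 8.05-fold above the floor of 3 reads per library. In the reverse direction 3 genes were found, each with a mean under 5 normalized reads.

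The difference between the UV-B responses of Mphy5 and wild type was tested for each gene, and 714 of the 15999 genes (4.46%) were called, 308 (1.93%) more positive and 406 (2.54%) more negative in the mutant. Among the 531 rises of at least 2-fold in Mphy5, 111 were more positive and 7 more negative in Mphy5 than in wild type. Among the 221 that fell, 39 were more negative and 1 more positive. These genes were chosen for large changes in Mphy5, which enter the difference, so the tilt of these counts is a description only. Without replicate 2 of untreated Mphy5 the more positive differences numbered 204, and a plain limma fit, with neither trend nor robust variance, called 332 differences in all.

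The rises of MpBBX2, MpBZIP1, MpRUP, MpCOP1 and MpDET1 were larger in the mutant by 2.01, 1.21, 1.11, 1.02 and 0.92 on the log2 scale, and these differences were called in all 22 alternatives. MpExpansin34 rose by 2.25 in Mphy5 and stood at 190, 115 and 174 without and 162, 122 and 203 with UV-B in wild type, with overlapping groups (difference 2.23 ± 0.38, limma adjusted p = 0.0055). Mp4g14850, which lies next to a stretch of LEA genes on chromosome 4, went from 60.7, 35.9 and 44.8 to 293, 324 and 256 in Mphy5. In wild type it stood at 408, 452 and 416 without and 458, 435 and 444 with UV-B, so the treated mutant came nearer to the wild type level than the untreated mutant (difference 2.56, limma adjusted p = 1.5e-06). MpCKX2 had the same arrangement, from 125, 155 and 126 to 267, 305 and 281 in Mphy5, with 492 to 740 in the 6 wild type libraries. MpPKS/CHS2, MpPAL1 and MpF3H began lower in Mphy5, with untreated means of 4309, 2452 and 4924 against 6499, 4828 and 6848 in wild type. Their treated means were 60077, 14760 and 37248.5 in Mphy5 and 59161, 16992 and 41802 in wild type. MpBBX2 and MpBZIP1 had higher treated means in Mphy5, 3434 and 16122 against 654 and 6033.

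In the other direction, MpPIN1, MpAUX1 and MpHCT fell further in the mutant, by 0.62, 0.83 and 0.87. MpSQC2 went from 58.6, 53.8 and 78.2 to 34.3, 47.0 and 27.5 in Mphy5 and rose in wild type from 397, 420 and 562 to 1066, 923 and 643, so the lines moved in opposite directions (difference -1.72, limma adjusted p = 0.0023). The glycoside hydrolases MpGH19.9 and MpGH19.7, of a family that holds chitinases, fell by 0.97 and 0.59 in Mphy5 and did not pass the test in wild type. Their differences of -1.12 and -0.89 were called, the first with adjusted p up to 0.097 in 3 of the alternatives. MpDOXC15 rose in both lines, by 0.65 in Mphy5 and 1.58 in wild type.

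**Figure D4:**
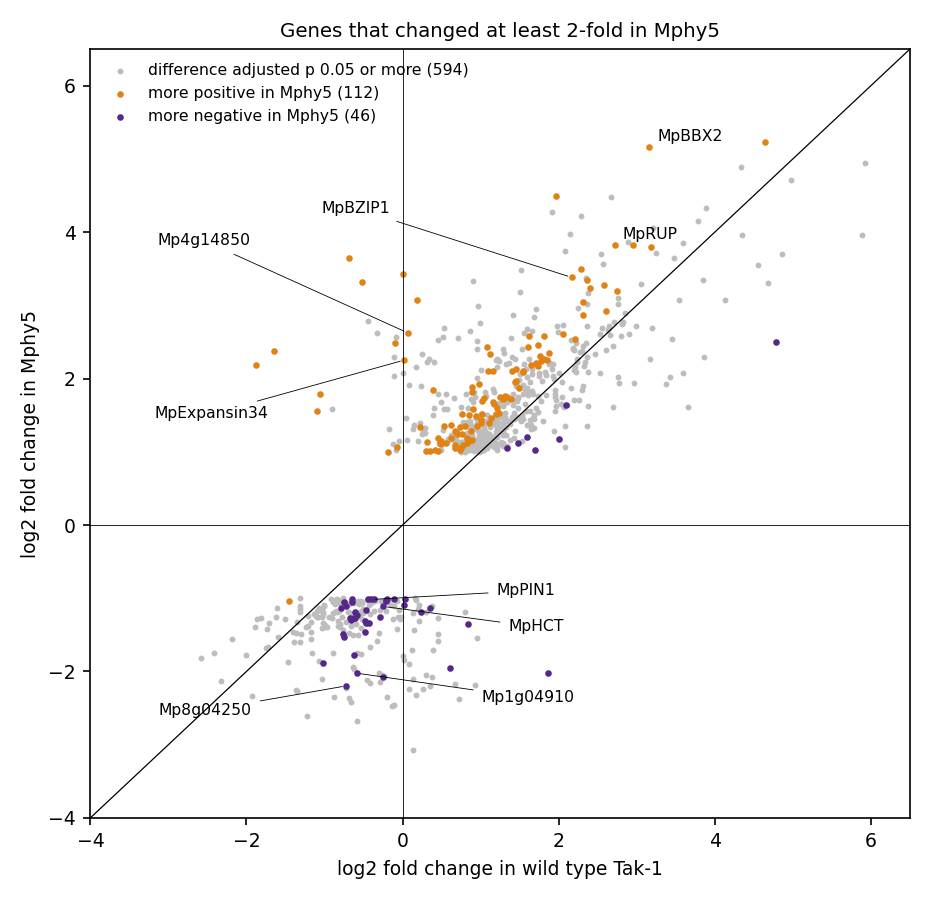
Log2 fold change with UV-B in Mphy5 (vertical) against wild type Tak-1 (horizontal) for the 752 genes that changed at least 2-fold in Mphy5, with the diagonal of equal change. Orange points (112) were called more positive and purple points (46) more negative in Mphy5, and the 594 grey points were not called as different.

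Some genes with changes of at least 2-fold lay side by side on a chromosome. Of 528 genes that rose at least 2-fold and could be placed in the gene order, 103 lay in 48 runs of directly neighbouring genes, and of 217 that fell 36 lay in 16 runs. Over all genes tested 3.32% rose and 1.38% fell at least 2-fold. Whether these runs exceed what such shares give by themselves was not tested. Some held genes with few reads, such as MpPOD15 with a treated mean of 2.54 normalized reads. The longest run of rises had 4 genes, Mp4g18580, Mp4g18590, Mp4g18610 and Mp4g18620, all at or below 1.63 normalized reads in each untreated library and between 8.10 and 50.2 in each treated one. MpCOP1 was followed by Mp5g12020 and Mp5g12030, which rose by 4.05 and 2.42. Without stated strand use in the counting, reads of overlapping or read-through neighbours cannot be told apart. These runs were chosen after their values were seen.

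The longest run of falls had 5 genes, Mp5g04550 to Mp5g04590 on chromosome 5, and the next 2 genes, Mp5g04600 and Mp5g04610, fell as well by less than 2-fold. Over these 7 genes the log2 changes lay between -1.28 and -0.88, with limma adjusted p from 0.0014 to 0.023. Mp5g04590 went from 6937, 8674 and 7210 to 2351, 4749 and 4050. Replicate 1 of the treated plants was the lowest in each of the 7, and without it the changes lay between -1.01 and -0.60 and all 7 were still called. Without replicate 2 of the untreated plants the calls of Mp5g04550 and Mp5g04600 were lost (limma adjusted p = 0.057 and 0.079). In a fit of the 6 Mphy5 libraries alone, 6 of the 7 were not called, with limma adjusted p of 0.071 to 0.118. In wild type none of the 7 was called, with changes of -0.04 to 0.43, and the difference between the lines was called for 1, Mp5g04610, at -1.36 (limma adjusted p = 0.048). That call was lost in 13 of the 22 alternatives, TMM rescaling and 10 with 1 library left out among them. Directly before the run, Mp5g04540 did not pass the test in Mphy5 (log2 -0.65, limma adjusted p = 0.057), though its groups did not overlap and were lower with UV-B. The gene before that, Mp5g04530, rose in Mphy5, from 1074, 979 and 1045 to 2891, 2602 and 2434.

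**Figure D5:**
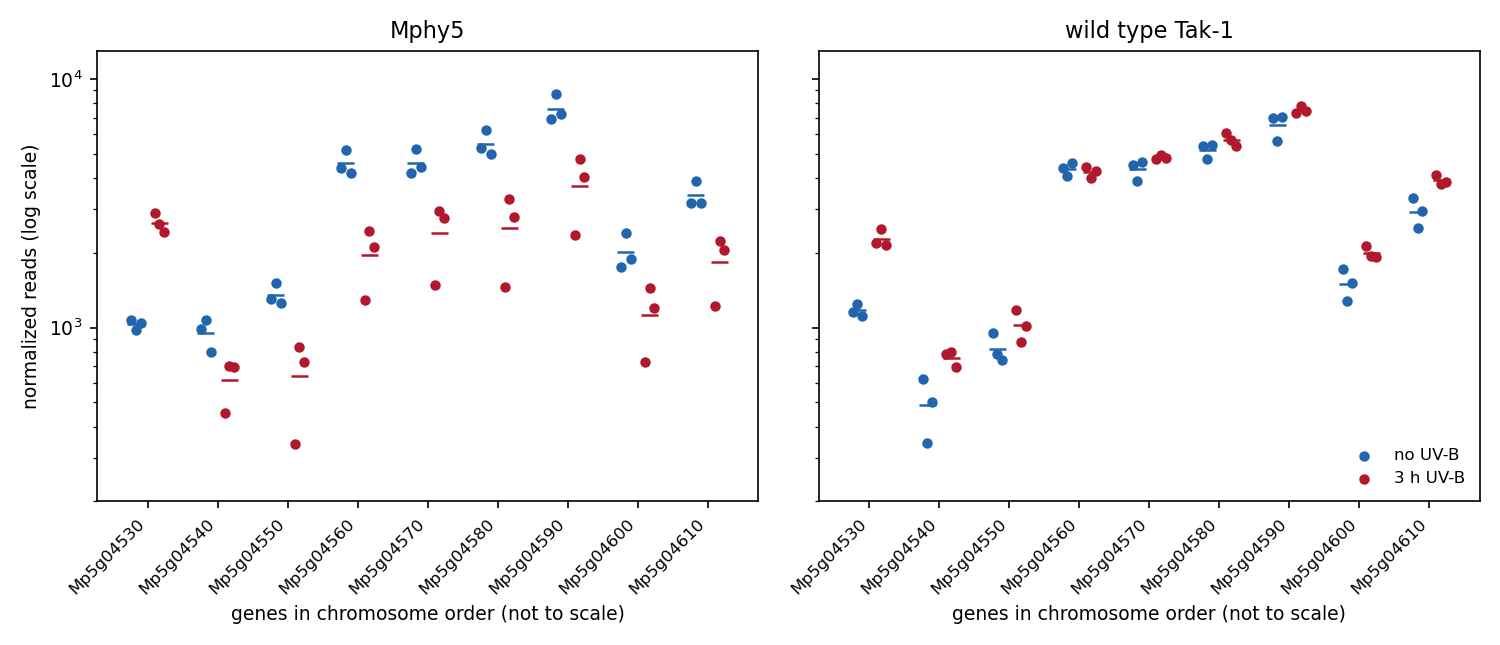
Normalized reads (log scale) of 9 neighbouring genes of chromosome 5 in gene order, in Mphy5 (left) and wild type Tak-1 (right), without UV-B (blue) and with 3 h of UV-B (red), with horizontal lines at group means. From Mp5g04550 to Mp5g04610 every treated Mphy5 library is below every untreated one, and the treated library of replicate 1 is the lowest.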

How the data were processed

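The authors deposited 1 table of normalized signal per gene for 12 libraries of 100-base single reads. The aligner was STAR, version 2.7.4, per the submitters' processing notes. For the genome build, annotation, counting program and strand use the sources used here give nothing. The deposited signal equals whole reads scaled by 1 factor in each library, since 100% of values were whole multiples of 1 step within 0.02 reads, which allowed the counts to be recovered. A floor of 3 reads equals 2.34 to 3.58 normalized reads in the Mphy5 and wild type libraries and covers counting error only. Gene names are from a RefSeq table (assembly MpTak2_v7.1), which matched 18082 of 18255 identifiers and gave 3110 symbols, and was used for names and gene order.

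A gene was tested if 3 or more libraries had a value of 1 or more, which left 15999 genes. They were tested with limma 3.58.1 in R 4.3.3 on log2(value + 1), with trend and robust options and 4 group means fitted to the 12 libraries (8 residual degrees of freedom). The wild type libraries thus shared in the estimate of spread. For low genes the pseudocount of 1 pulls a fold towards 0. Changes of 1.5, 2 or 4-fold were simulated in 200 genes with means of at least 50, and in no other gene. Of the 2-fold changes, limma recovered 95.5% for the Mphy5 response and 88.1% for the difference. Of the 1.5-fold changes it recovered 82.1% and 64.2%. False calls made up 4.64% and 4% of the calls, in a setting with far fewer changed genes than the 31.8% called here.

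The comparison, the 38 gene lists (by symbol) and the naming rule were chosen with earlier results of these data known. The rule named genes that were called, had a mean of at least 51.63 normalized reads in the higher group and no overlap: the 15 largest rises and 12 largest falls with a symbol, and 5 of each without. It added up to 4 members per list with the smallest adjusted p, the 5 highest genes at 0 in 1 group, MpBZIP1, and the 6 most positive and 6 most negative differences. Other members of a described list were chosen after their values were seen. Lists are described by counts and medians without a set test. Replicates within a group differed by more than sampling noise. What a replicate number marks was not stated, and the main fit did not pair samples by it.

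Alternatives were pseudocounts of 0.1 and 5, no filter, a stricter filter at 5, rescaling by TMM or by median ratios, the replicate block, each library left out, limma without trend and robust options, the 6 Mphy5 libraries alone, and edgeR 4.0.16 and DESeq2 1.42.0 on recovered reads. Promoter sequences were not used here.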

Additional observations from a re-analysis of the deposited data

Results flagged for a closer look

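Of the named genes, 71 had UV-B responses that differed between Mphy5 and wild type by limma's test of the difference (adjusted p below 0.05), 39 more positive and 32 more negative in Mphy5. The values in parentheses are these differences, Mphy5 minus wild type, on the log2 scale. They compare fold changes, so a positive value need not mean a higher treated level in Mphy5. Each group has 3 libraries, and no test for outlying values was made within groups of that size. Of the 71 differences, 28 lost their call in at least 1 alternative, and 12 of them in 8 or more. These 12 were MpBHLH21 (14 alternatives), MpUGT9, MpGT34.6 and Mp5g04610 (13 each), MpAP2B3-2 (12), MpPKS/CHS15, MpC2H2-14, MpRLK-Pelle_RLCK-Vb and Mp6g04490 (10 each), MpBHLH6 (9), and MpABI5B and Mp5g04530 (8 each).

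The largest positive differences among genes with a symbol were those of MpExpansin34 (2.23), MpBBX2 (2.01), MpLEA-like18 (1.35), MpBZIP1 (1.21), MpCKX2 (1.14), MpRUP (1.11), MpCOP1 (1.02), MpPOD169 (0.94), MpDET1 (0.92), MpPPO20 (0.85), MpPAL1 (0.78) and MpPRR (0.67). Smaller positive differences were seen for MpPKS/CHS15 (0.65), MpBBX3 (0.65), MpPKS/CHS2 (0.62), MpPPR_73 (0.57), MpABCC6 (0.56), MpABCC5 (0.55), MpC2H2-9 (0.55), MpBHLH39 (0.49), MpPPR_16 (0.46), MpDHAR1 (0.44), MpABI5B (0.42) and MpPKS/CHS14 (0.41). The list of positive differences ended with MpPPR_67 (0.37), Mp1R-MYB11 (0.36), MpUGT9 (0.32), MpF3H (0.31), MpAP2B3-2 (0.31), MpC2H2-14 (0.30), MpHSP90-4 (0.29) and MpBBX1 (0.29). Genes without a symbol with more positive responses in Mphy5 were Mp1g02940 (4.34), Mp4g14850 (2.56), Mp2g16790 (2.53), Mp6g04480 (1.21), Mp6g04490 (0.83), Mp6g14520 (0.59) and Mp5g04530 (0.40). Mp1g02940 had few reads, at 0 in every untreated Mphy5 library and at 4.29, 23.48 and 14.33 normalized reads with UV-B. In wild type it stood at 2.75, 6.01 and 5.13 without and at 4.65, 2.34 and 1.04 with UV-B.

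The most negative differences were those of MpSQC2 (-1.72), MpGH19.9 (-1.12), MpLEA-like33 (-0.96), MpDOXC15 (-0.93), MpGH19.7 (-0.89), MpHCT (-0.87), MpDOXC28 (-0.86), MpAUX1 (-0.83) and MpCYP824A1 (-0.76). Less negative values were found for MpLOX14 (-0.73), MpDOXC22 (-0.65), MpPIN1 (-0.62), MpPPO37 (-0.60), MpPOD23 (-0.59), MpPKS/CHS10 (-0.58), MpBHLH15 (-0.56), MpRLK-Pelle_PERK-2a (-0.54), MpLEA-like8 (-0.52) and MpRLK-Pelle_LysM5 (-0.47). The smallest called differences in this direction were those of MpRLK-Pelle_RLCK-II (-0.41), MpBHLH6 (-0.37), MpBHLH21 (-0.36), MpBHLH45 (-0.36), MpBZIP15 (-0.35), MpGT34.6 (-0.35), MpRRA (-0.32), MpR2R3-MYB9 (-0.28), MpBBX5 (-0.24) and MpRLK-Pelle_RLCK-Vb (-0.23). Genes without a symbol with more negative responses were Mp8g04250 (-1.48), Mp1g04910 (-1.44) and Mp5g04610 (-1.36).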

How the results depend on the processing

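The Mphy5 response called 4402 to 5239 genes over its alternatives, 2222 to 2728 higher and 2180 to 2646 lower. edgeR shared 4994 and DESeq2 5021 of the 5087 calls in the same direction, and the 6 Mphy5 libraries alone 4804. TMM rescaling moved the median change of all genes by 0.017 and gave 2728 rises and 2330 falls. With 1 library left out the rises of at least 2-fold numbered 499 to 534 and the falls 146 to 254, the lowest without replicate 1 of treated Mphy5. Listed genes called higher numbered 231 to 277 and lower 231 to 271. The difference between lines called 714 genes, and 481 to 729 with 1 library left out, 204 to 385 more positive and 277 to 439 more negative, the 204 without replicate 2 of untreated Mphy5. limma without trend and robust options called 332, with 159 more positive and 173 more negative, and the cause was not tested. No result reversed. Of 214 named genes called in Mphy5, 192 were called in every alternative, and of 71 named differences 43 were. Of 76 list counts, 19 moved by more than 1.5 times in some alternative.

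Samples with the same replicate number showed correlations of -0.017 to 0.054 in their deviations from group means. For samples of different groups and numbers these were -0.051 to 0.038. A weak pairing cannot be told from none by these values. The replicate block called 5146 genes for Mphy5 and 779 for the difference. DESeq2 gave no adjusted p for 2 named values. Depth limits low genes most: 137 of the 531 rises and 72 of the 221 falls of at least 2-fold had group means below 51.63 normalized reads.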

Other observations

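Short lists outside the comparisons above were also counted in the UV-B response of Mphy5. Of 6 heat shock genes 2 rose and none fell, both encoding chaperones of the HSP90 family. MpHSP90-4 went from 12666, 12559 and 11716 normalized reads to 20959, 20446 and 20118, and MpHSP90-1 rose by 0.37 on the log2 scale (limma adjusted p = 1.4e-06). Of 43 genes of dividing cells, such as cyclins and histones, 5 (11.6%) rose and 9 (20.9%) fell, with a median of -0.04. Over all genes 15.9% were called in each direction. MpCYCD_2, a cyclin, stood at 61.6% of its untreated level, the histone genes MpH4e and MpH1 at 77.8% and 82.2%, and MpH2B.2 rose 1.37-fold. Treated libraries lay on 1 side of the untreated ones in each of these genes, which were picked among called ones. Over all genes tested, they all lay above for 21% and all below for 21.9%.

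None of 3 DNA repair genes was called by limma. Of 2 carotenoid cyclase genes MpLCY-like2 rose by 0.26 and MpLCY-like1 fell by 0.24. Of 3 tested regulators of sexual organs 1 fell, MpRKD, from 8590, 8334 and 7971 to 6892, 6732 and 6440. Of 5 reference genes MpACT1 and MpACTIN7 fell by 0.20 and 0.18, with overlapping groups and calls lost in 3 and 4 alternatives, while MpEF1, MpAPT and MpACT2 did not pass the test at 0.02, -0.12 and -0.07. On the V chromosome 3 genes rose and 3 fell of 50 tested (12% called), and none of 7 tested U chromosome genes was called. For these and the other counts of this paragraph, the share over all genes tested was 31.8% called, 15.9% in each direction.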
